A study of Homo sapiens with 8 samples.

Results

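CCRF-CEM-C7-14 is a subclone of CCRF-CEM, an established human T-cell acute lymphoblastic leukaemia (T-ALL) line, and is known to die when it is exposed to glucocorticoids. The expression state of these cells before hormone is described here from 3 arrays of untreated cells at 0 h, out of 8 arrays in the series. The 3 arrays were chosen by their label alone, with a treatment of none and a time of 0 h, and the 5 others come from cells given dexamethasone for 2 h (3 arrays) or 10 h (2 arrays). All cells had been moved into medium with charcoal-stripped serum, which is depleted of steroids, so the untreated arrays show cells in low-hormone medium rather than in full serum. The line is a single clone grown in culture, so the arrays describe that clone and not T-ALL as a disease. The 3 arrays are labelled biological replicates, but the labels do not say whether each came from its own culture, and the spread between them may be technical. No comparison with treated cells is made, and no test was run, since the untreated arrays form a single group.

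T-ALL arises from thymocytes whose differentiation is arrested, usually after a transcription factor of another lineage or stage has been switched on. TAL1 is such a factor: it is normally active in blood stem cells and red-cell precursors, and it works in a complex with E-proteins, LMO and LDB1 proteins, GATA3 and MYB. Glucocorticoids kill thymocytes and many T-ALL cells through the glucocorticoid receptor, the product of NR3C1, which waits in the cytoplasm on HSP90 and its cochaperones and needs BCL2-family genes such as BCL2L11 to trigger death. What a leukaemia cell already expresses of its lineage, its oncogenes, its survival genes and this receptor pathway is therefore its starting point.

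The promoters of 4 genes that the results return to are printed as examples of promoter sequence. They come from RefSeq, and these arrays do not read start sites. CD3D carries the lineage label, CD79A is a gene of another lineage that was above background, STIL is the gene whose promoter is known to drive TAL1 in a subset of T-ALL, and BCL11B is the T-lineage gene beside which NKX2-5 is known to be placed in some T-ALL lines, CCRF-CEM among them. These arrays do not read rearrangements. Each window is the 250 bases before the RefSeq gene start in GRCh38.p14, written 5′ to 3′ on the gene's strand, and every CG dinucleotide, the site of DNA methylation, is in capitals. The CD3D window is chr11:118342706-118342955 on the minus strand, that of CD79A chr19:41877029-41877278 on the plus strand, that of STIL chr1:47314148-47314397 on the minus strand and that of BCL11B chr14:99272198-99272447 on the minus strand.
CD3D: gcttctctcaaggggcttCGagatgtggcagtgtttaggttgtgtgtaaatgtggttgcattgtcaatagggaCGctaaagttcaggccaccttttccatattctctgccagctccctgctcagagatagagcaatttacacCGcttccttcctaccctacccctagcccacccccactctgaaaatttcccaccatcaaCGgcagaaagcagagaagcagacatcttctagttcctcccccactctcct
CD79A: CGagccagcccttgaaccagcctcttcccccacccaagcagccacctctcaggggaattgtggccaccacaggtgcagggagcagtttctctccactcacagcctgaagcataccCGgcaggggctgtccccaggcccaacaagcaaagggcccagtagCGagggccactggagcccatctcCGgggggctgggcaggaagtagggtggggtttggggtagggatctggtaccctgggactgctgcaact
STIL: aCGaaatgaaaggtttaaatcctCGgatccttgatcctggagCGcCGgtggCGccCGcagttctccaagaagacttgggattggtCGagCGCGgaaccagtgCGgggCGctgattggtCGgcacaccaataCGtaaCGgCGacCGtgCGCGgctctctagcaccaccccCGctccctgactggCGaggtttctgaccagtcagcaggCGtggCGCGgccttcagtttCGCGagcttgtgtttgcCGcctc
BCL11B: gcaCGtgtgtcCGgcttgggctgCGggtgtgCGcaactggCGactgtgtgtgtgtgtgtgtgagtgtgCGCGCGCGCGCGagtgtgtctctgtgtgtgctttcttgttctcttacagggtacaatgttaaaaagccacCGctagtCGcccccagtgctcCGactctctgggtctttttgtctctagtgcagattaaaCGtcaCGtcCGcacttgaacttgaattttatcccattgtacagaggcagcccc
The CD3D and CD79A windows hold 4 CG dinucleotides each, the BCL11B window 17 and the STIL window 26. How CG content relates to expression over all genes is given at the end.

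Expression was measured as log2 values per probe set, and levels of different probe sets share no common scale. Each gene was therefore set only against negative controls of the same array. The controls were 27 probe sets for Bacillus transcripts, which human RNA should not bind. A gene was called above background when its probe set lay above the highest of them on all 3 arrays, overlapping when it did so on 1 or 2 arrays, and within the control range when it did so on none. The margin is the gene's mean distance above that control in log2 units. It depends on the probe as well as on the RNA and does not rank genes by abundance.

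By this measure 12819 of 19775 genes were above background (64.8%), 1555 overlapped it (7.86%) and 5401 were within the control range (27.3%), with a median margin of 1.08. The highest Bacillus value was 4.56, 4.55 and 4.68 on replicates 1, 2 and 3, and a single control for the phe transcript set it on each array, with the next control at 3.89, 3.70 and 4.31. This is a low bar. Of 100 olfactory and taste receptor genes, which act in sensory cells, 18 were also above every Bacillus control, 13 overlapped and 69 were within their range. A stricter yardstick, added after these values had been seen, was therefore the highest receptor gene of the same array, at 6.66, 6.39 and 6.76 and set by OR1I1 or OR1J2. Of 19675 genes that are not receptor genes, 7219 exceeded it on all 3 arrays (36.7%). It is called the receptor-gene ceiling below, and each list is read against both percentages. At the other end, 55 of 56 cytosolic ribosomal protein genes were above the Bacillus controls and 54 above the ceiling, and 33 of 34 proteasome genes were above both. The exceptions within the control range were RPL36A, read by 1 probe set, and PSMA8, a proteasome subunit gene known for its role in the testis.

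**Figure D1:**
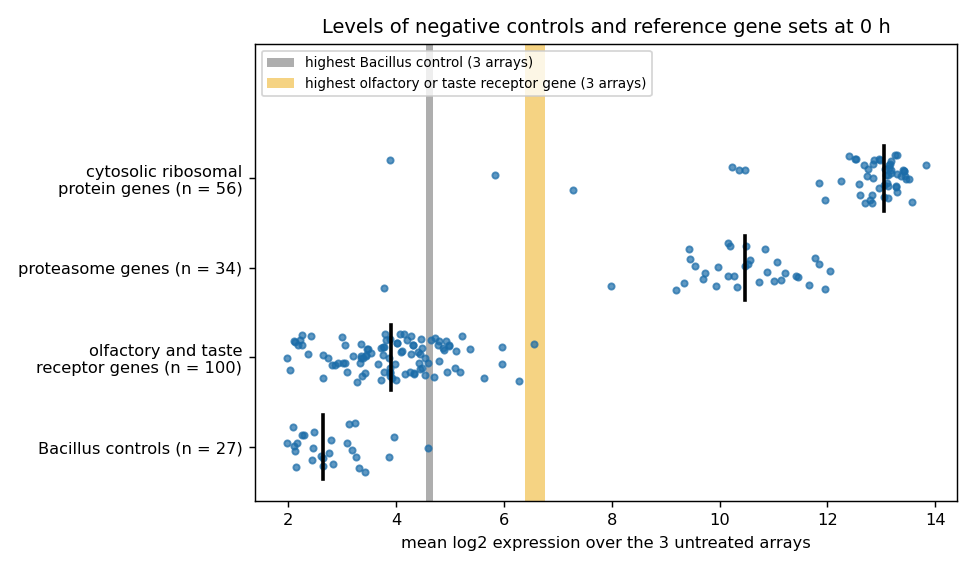
Mean log2 expression over the 3 untreated arrays (horizontal axis) for 27 Bacillus controls, 100 olfactory and taste receptor genes, 34 proteasome genes and 56 ribosomal protein genes, 1 point per probe set and a black line at each median. The grey and yellow bands span the highest Bacillus control and the highest receptor gene over the 3 arrays, and all but 1 proteasome gene and 2 ribosomal protein genes lie to the right of both.

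The share of genes above background also went with the number of probe sets that read a gene. It was 49.8% for genes with 1 probe set, 71.2% with 2, 81.2% with 3 and 87.4% with 4 or more. The 584 measured genes of the lists below were above in 74.1%, with 60.2% among those with 1 probe set and 87.1% among those with 4 or more. Genes with several probe sets were thus more often above background inside and outside the lists, and the part of this in each list's share was not tested. Probe sets of a gene often disagreed: of 10523 genes with over 1 probe set, all were above background for 3640, some for 4590 and none for 2293.

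For the label of the line CD3D, CD7, TAL1 and NR3C1 were read. By the probe set with the highest mean, all 4 were above background and above the ceiling on each array. Of these, CD3D and CD7 bear on the T lineage, while TAL1 stands for an oncogene and NR3C1 for the hormone receptor. CD3D, a chain of the T-cell receptor complex, stood at 13.01, 13.03 and 12.93 on replicates 1, 2 and 3. CD7, an early T-lineage surface antigen, stood at 8.73, 8.18 and 8.14. TAL1 stood at 8.08, 7.84 and 7.98, and NR3C1 at 11.24, 10.72 and 10.92. No array of any of these genes came within 1 log2 unit of the ceiling. TAL1 has 4 probe sets, of which 3 were above background on all arrays, and the fourth, at 3.86, 3.49 and 4.13, was within the control range. The fourth is the only one whose name carries no suffix for sequence shared between transcripts, so with such probe sets preferred TAL1 would be within the control range, at a margin of -0.77. Where another probe set rule ends the call of a gene named here, this is given beside the gene or among the effects of the processing. NR3C1 has 5, of which 4 were above on all arrays.

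Most measured genes of the T-cell receptor machinery were above both yardsticks. Of 26 listed genes of the receptor and its proximal signalling 19 were measured, and 18 of these were above background and the same number above the ceiling, with a median margin of 4.94. Besides CD3D these were the other CD3 chains CD3G (10.46, 10.56 and 10.24) and CD3E (9.65, 9.53 and 9.39) and the zeta chain CD247 (9.58, 9.32 and 9.70). TRBC1, a constant segment of the receptor's beta chain, was at 12.78, 12.64 and 12.59. LCK, the kinase that starts signalling at the receptor, was at 12.54, 12.38 and 12.12. The kinase PRKCQ, the adaptor SH2D1A and the GTPase RHOH were also above the ceiling on all arrays. The exception was TXK, a TEC-family kinase, at 2.54, 2.40 and 2.91 within the control range.

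T-cell surface antigens were more mixed. Of 18 measured, 15 were above background (83.3%, against 64.8% of all genes), 2 overlapped and 1 was within the control range. Above the ceiling were 9 (50.0%, against 36.7%), and the median margin was 2.80. CD5, a pan-T antigen, was at 8.47, 7.78 and 8.22, the pan-leukocyte phosphatase PTPRC at 11.31, 10.84 and 11.17, and the scavenger-type receptor CD6 at 9.06, 8.63 and 8.80. CD2, another pan-T antigen and the adhesion receptor for CD58, overlapped the controls at 4.84, 4.22 and 5.28, with replicate 2 below the highest control. ICOS also overlapped, and CD96 lay within the control range at 3.36, 3.13 and 3.52. Thus CD3 chains, CD5 and CD7 were read above background in the same RNA in which the only CD2 probe set was not.

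The stage of a thymocyte is read from its coreceptors, CD1 proteins and recombination genes. Of 23 measured stage genes 20 were above background and 13 above the ceiling, with a median margin of 3.34. CD4 was at 8.50, 8.29 and 8.06, above the ceiling on each array. CD8A, at 6.18, 6.48 and 6.08, was above background on all arrays but above the ceiling on 1, and CD8B, at 6.71, 6.84 and 6.39, on 2. CD1A, a marker of cortical thymocytes, was at 9.41, 8.95 and 8.91, and CD1C at 10.62, 10.27 and 10.15. CD1E was above the ceiling on all 3 arrays, and CD1B and CD1D on 2 of 3. ADA, the adenosine deaminase of lymphocyte precursors, was at 12.31, 12.23 and 12.62, and CD38 at 10.32, 10.15 and 10.30. PTCRA, the invariant chain of the pre-T-cell receptor, was at 7.12, 7.04 and 7.41, above both yardsticks.

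The genes of receptor rearrangement stood lower against the controls. RAG1, a subunit of the recombinase, was at 5.17, 6.46 and 6.85, above background throughout but above the ceiling on replicates 2 and 3 alone, and with a spread between arrays of 1.67. The mean of its 2 probe sets gave a margin of -0.37. RAG2, its partner, was at 5.96, 5.71 and 5.83, under the ceiling on every array. DNTT, the polymerase that adds bases at receptor joints, overlapped the controls at 4.56, 4.68 and 4.44, and none of its 3 probe sets was above on all arrays. The progenitor antigen CD34 was at 6.27, 6.15 and 6.26, under the ceiling, and the progenitor receptor KIT was within the control range at 3.60, 2.96 and 3.52. In bulk RNA, a few cells with much of a transcript and many cells with little of it cannot be told apart, and this holds for every gene here.

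**Figure D2:**
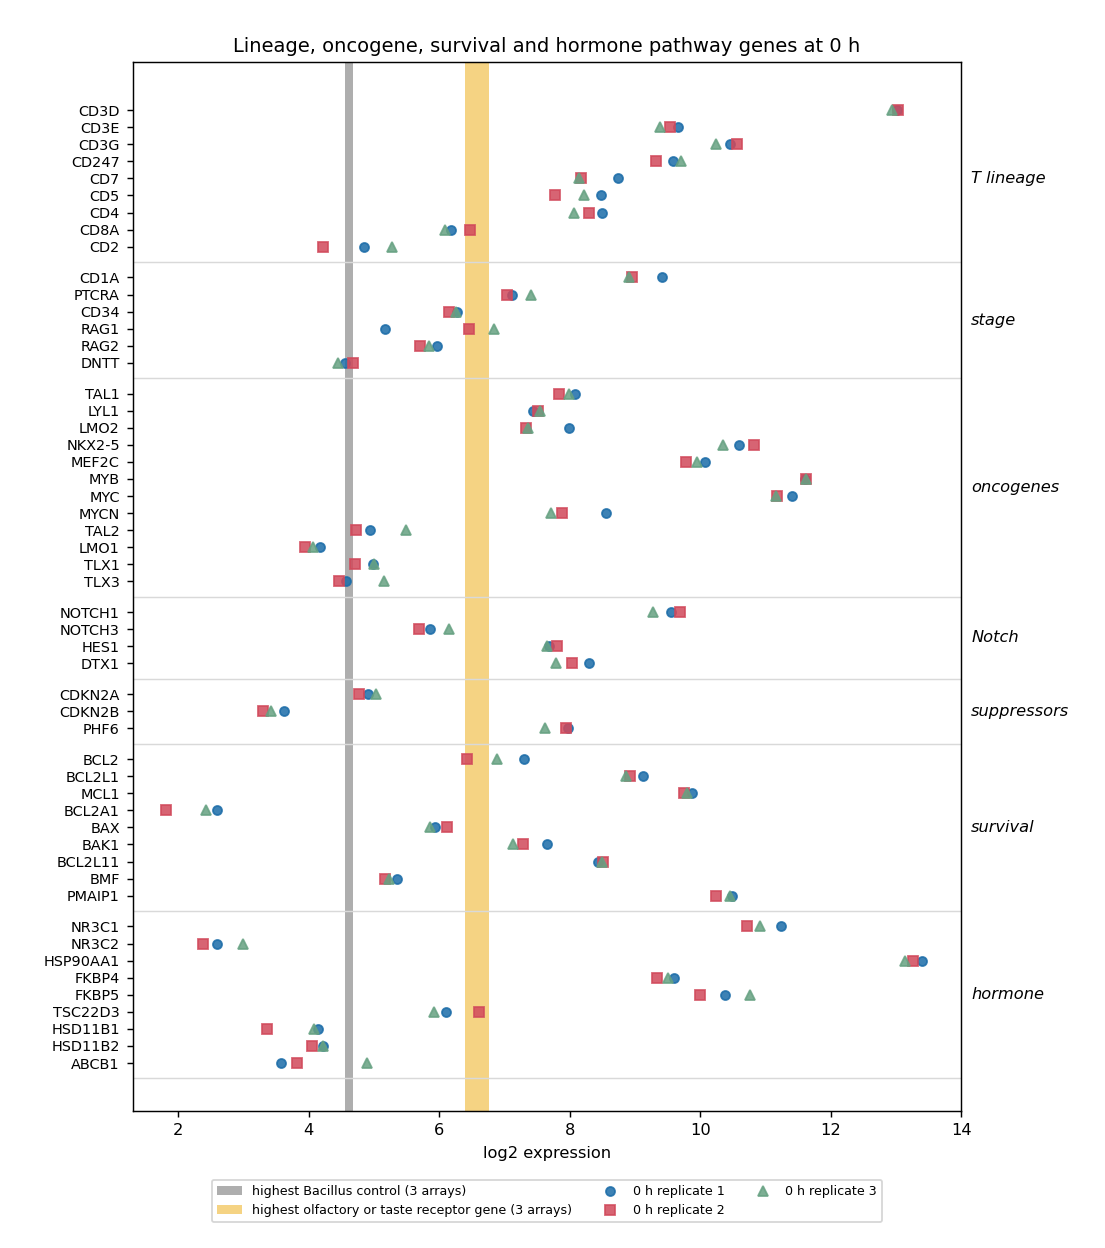
Log2 expression (horizontal axis) of lineage, stage, oncogene, Notch, suppressor, survival and hormone-pathway genes, 1 row per gene and 1 symbol per untreated array, against the highest Bacillus control (grey band) and the highest receptor gene (yellow band). CD3D, TAL1, NKX2-5 and NR3C1 lie to the right of both bands on all arrays, while CDKN2B, BCL2A1, NR3C2 and HSD11B1 lie to the left of both.

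Transcription factors of the T lineage followed. Of 31 measured 26 were above background and 21 above the ceiling, with a median margin of 3.20. LEF1, which acts with beta-catenin in thymocytes, was at 11.91, 11.81 and 11.85, and GATA3, the factor of T-lineage commitment, at 11.11, 10.64 and 10.76. BCL11B, which locks in that commitment, was at 9.89, 9.47 and 9.66. ETS1, IKZF1, which encodes Ikaros, and CBFB, the partner of the RUNX proteins, were above both yardsticks on every array. Factors of mature effector cells were not: TBX21, the factor of type 1 helper cells, overlapped the controls at 3.91, 4.09 and 4.96, and EOMES was within their range at 3.48, 3.39 and 4.01. FOXP3, the factor of regulatory T cells, was above background at 4.96 ± 0.12 (SD, n = 3) but under the ceiling on each array. ERG, an ETS factor of stem cells, overlapped at 4.31, 4.07 and 5.72, where replicate 3 alone was high.

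Among T-ALL oncogenes, 23 of 29 measured were above background and 16 above the ceiling, with a median margin of 2.91. The genes that define T-ALL subtypes were split. NKX2-5, a homeobox gene that normally acts in the heart, was at 10.59, 10.82 and 10.34, far above both yardsticks on each array. TLX1, the homeobox gene of another subtype, was at 4.98, 4.70 and 5.01, above background by little and under the ceiling, and TLX3 overlapped the controls at 4.57, 4.47 and 5.16. LMO1 was within the control range at 4.17, 3.94 and 4.06, as was the oligodendrocyte factor OLIG2. TAL2, a close relative of TAL1, was at 4.95, 4.72 and 5.49, under the ceiling.

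LYL1, the other TAL1 relative on the list, was at 7.44, 7.51 and 7.55, and LMO2, the bridge protein of the TAL1 complex, at 7.99, 7.33 and 7.36, both above the ceiling on each array. The other LMO2 probe set, at 3.76, 3.70 and 3.42, was within the control range. MEF2C, an oncogene of immature T-ALL, was at 10.07, 9.78 and 9.95 by the best of 3 probe sets, all of them above background. HHEX, a homeobox gene of blood progenitors, was at 9.19, 9.11 and 7.69, with replicate 3 low. MYB was at 11.61, 11.62 and 11.61, and MYC at 11.41, 11.18 and 11.16. MYCN was at 8.56, 7.87 and 7.72 by its best probe set, but only 3 of its 10 probe sets were above background, and the mean of all 10 gave a margin of -0.23. Of the HOXA cluster, which marks a further T-ALL subtype, only HOXA2 was measured by a probe set of its own, and it was within the control range at 3.14, 2.97 and 3.28. HOXA9 and HOXA10 were not analysed here.

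The genes with which NKX2-5 works in the heart were read at mixed heights. Of 14 cardiac partners and targets, 6 were above background (42.9%, against 64.8% of all genes), 3 overlapped and 5 were within the control range, with a median margin of -0.01. Against the highest control of all 8 arrays 3 were above. MEF2C, which lymphoid cells also use, was the only member above the ceiling. GATA4 (5.75, 5.56 and 5.95), GATA6 (5.43, 5.22 and 5.19) and the natriuretic peptide gene NPPA (5.02, 4.70 and 5.31) were above the Bacillus controls but under the ceiling on every array. TBX5 overlapped the controls, and MYH6, the atrial myosin gene, was within their range at 4.18, 4.11 and 3.81.

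Most listed genes of the TAL1 complex and its partners were read above background, by their highest probe sets. Of 22 measured members and partners, 20 were above background (90.9%, against 64.8% of all genes), with a median margin of 3.52. All of these were above the ceiling (against 36.7% of all genes). With probe sets without a suffix preferred 17 were above background, beside 11857 of 19775 over all genes, and TAL1 itself was not. The E-proteins that pair with TAL1 were TCF12 (10.48, 10.19 and 10.36) and TCF3 (10.25, 9.95 and 9.86). LDB1, which links LMO proteins into the complex, was at 8.07 ± 0.07 (SD, n = 3). The cofactors HDAC1, HDAC2 and KDM1A, which remove acetyl and methyl marks, were above both yardsticks. Most cells use these cofactors, and RNA levels do not show that a complex is formed. STIL, the gene just upstream of TAL1 whose product acts at the centriole, was at 8.24, 7.56 and 8.57. The 2 members not above background were LMO1 and RUNX1T1, the latter overlapping at 4.58, 4.55 and 4.79. Of 12 measured genes known from T-ALL to be bound and raised by TAL1, 10 were above background and 9 above the ceiling, with a median margin of 4.11. These included the retinoic acid enzyme ALDH1A2 at 12.15, 11.78 and 11.72, CDK6 at 12.08, 11.96 and 11.87, and the DNA-binding gene ARID5B at 8.74 ± 0.25 (SD, n = 3). TRIB2 overlapped the controls at 4.34, 4.48 and 4.99, and FAT3 was within their range. These genes have other regulators, and the arrays do not show what TAL1 binds.

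Tumour suppressors of T-ALL were mostly read above background, with 20 of 22 measured above, 17 above the ceiling and a median margin of 4.02. The 2 that were not above were CDKN2B and NF1. CDKN2B, which encodes p15 and lies beside CDKN2A in a region that many T-ALLs have lost, was within the control range at 3.62, 3.30 and 3.43, with neither of its 2 probe sets above. CDKN2A, which encodes p16 and p14ARF, was just above background at 4.91, 4.76 and 5.03 by 1 of 3 probe sets, and its other probe sets were within the control range. NF1, a brake on RAS, was within the control range at 3.39, 3.16 and 3.40 by 1 probe set. The arrays read RNA, and whether DNA is missing was not measured. The suppressors above both yardsticks included SUZ12, EZH2 and EED of the Polycomb complex, the deubiquitinase USP7, PHF6 (7.97, 7.94 and 7.62) and RB1 (8.47, 7.81 and 8.30). For EED the call was lost with probe sets without a suffix preferred, at a margin of -1.90.

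All 5 measured mismatch repair genes were above background and 4 above the ceiling. MSH6 was at 10.02, 10.27 and 9.29, with replicate 3 low, the nuclease EXO1 at 8.54, 8.38 and 8.65, and PMS1 and MSH3 above both yardsticks. For MSH3 the call was lost with probe sets without a suffix preferred, at a margin of -2.08. MLH3 was at 5.76, 5.59 and 6.23, under the ceiling.

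Notch signalling drives most T-ALL, and its parts were read unevenly. Of 27 receptors, ligands and processing genes 23 were above background and 13 above the ceiling, with a median margin of 2.15. NOTCH1 was at 9.56, 9.69 and 9.27 by the higher of 2 probe sets, and the other, at 4.42, 5.74 and 4.05, overlapped the controls. NOTCH2 was at 7.92, 7.50 and 7.80, and NOTCH3 at 5.86, 5.70 and 6.15, under the ceiling. The DNA-binding partner RBPJ, the protease ADAM10 and MFNG, a glycosyltransferase that tunes ligand choice, were above both yardsticks, and RBPJ had a margin of -0.36 by its probe set without a suffix. Ligands were not: JAG1, JAG2 and DLL3 were above background but under the ceiling on each array, DLL4 exceeded it on 1 array, and DLL1 was within the control range.

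Of 17 Notch target genes, 14 were above background, but only 6 were above the ceiling, a share of 35.3% against 36.7% for all genes, and the median margin was 1.27. The 6 were MYC, SHQ1, LZTFL1, DTX1, HES1 and PTCRA. DTX1, an E3 ligase of the pathway, was at 8.29, 8.04 and 7.79, and HES1, the repressor most often used to read it, at 7.67, 7.81 and 7.65. NRARP, at 5.84, 5.66 and 6.08, lay under the ceiling, HES6, at 6.59, 6.40 and 7.30, exceeded it on 2 of 3 arrays, and HES5 was within the control range.

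Cytokine receptors gave a similar split. Of 27 measured, 19 were above background (70.4%, against 64.8% of all genes) and 8 above the ceiling (29.6%, against 36.7%). The median margin was 1.09, which is close to that of all genes. IL2RG, the common gamma chain of the receptors for interleukins 2, 7 and 9, was at 10.99, 10.65 and 10.76. IL7R, the chain that carries the thymocyte survival signal, was at 5.50, 5.55 and 5.79, above background by both probe sets and under the ceiling. IL2RA, which marks early and activated T cells, overlapped at 4.37, 4.39 and 4.91, and IL6R and CSF2RB were within the control range. The interferon receptor chains IFNGR1, IFNGR2, IFNAR1 and IFNAR2 and the receptor TGFBR1 for TGF-beta were above both yardsticks.

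Downstream of these receptors, all 19 measured JAK, STAT and SOCS genes were above background and 13 above the ceiling, with a median margin of 3.34. JAK3, the kinase that pairs with IL2RG, was at 8.80, 8.27 and 8.50, JAK1 at 9.21, 8.82 and 9.22, STAT5A at 8.76, 8.52 and 8.71 and STAT5B at 8.89, 8.52 and 8.99. The feedback inhibitors were split. SOCS7 (8.88, 8.78 and 8.67) and CISH (7.01, 6.70 and 7.27) were above the ceiling on each array, as were SOCS4 and SOCS5, while SOCS1 (6.08, 5.79 and 5.22) and SOCS3 (5.11, 5.22 and 5.57) were under it. SOCS2 was at 5.41, 5.46 and 7.03, with replicate 3 alone above the ceiling. With the mean of all probe sets the margin was -0.78 for SOCS3 and -0.32 for SOCS2.

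Homing and adhesion receptors were above background in 20 of 26 (76.9%, against 64.8% of all genes), with a median margin of 2.18. Above the ceiling were 13 (50.0%, against 36.7%). CXCR4, the receptor for the marrow chemokine CXCL12, was at 11.39, 11.23 and 11.19 and was above background by all 3 of its probe sets. CCR7, which guides lymphocytes to lymph nodes and T-ALL cells to the central nervous system, was at 7.96, 7.59 and 7.77. CCR9, the thymus and gut receptor, overlapped the controls at 5.38, 5.07 and 3.97, with replicate 3 alone below them. ITGAE, the integrin chain that binds E-cadherin, was at 10.92, 10.85 and 11.03, and CD44, which binds hyaluronan, at 10.91, 10.42 and 10.36. S1PR1, the exit receptor of mature thymocytes, was within the control range at 4.03, 3.65 and 3.61, and CCR1, CCR2, CCR6 and CCR10 were within it too.

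PI3K, AKT and mTOR genes were above background in all 19 measured cases and above the ceiling in 17, with a median margin of 3.47. PIK3CD, the catalytic subunit typical of leukocytes, was at 9.33, 8.87 and 8.95, PIK3R1, a regulatory subunit, at 9.86, 9.61 and 9.60, and AKT1 at 8.96, 8.88 and 8.56. INPPL1, which encodes the phosphatase SHIP2, and TSC2, a brake on mTOR, were the members under the ceiling on at least 1 array.

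Of 23 cyclins, CDKs and their inhibitors, 19 were above background and 15 above the ceiling, with a median margin of 3.51. CDK6 was above background by all 7 of its probe sets, and CDK4, its relative, was at 11.71, 11.61 and 11.60. Of the D cyclins that activate them, CCND3 was at 11.45, 11.36 and 11.74, CCND2 at 5.37, 5.16 and 5.93 and under the ceiling, and CCND1 within the control range at 3.92 ± 0.11 (SD, n = 3). CCND3 is the D cyclin known to serve thymocytes. The CDK inhibitor CDKN1B was at 9.29, 9.25 and 8.94, above the ceiling, while CDKN1A (6.12, 5.95 and 6.08) was under it and CDKN1C overlapped the controls. MKI67, the proliferation marker, was at 8.08, 7.65 and 8.56, and CDK1 and CCNB1 of mitosis were above both yardsticks.

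**Figure D3:**
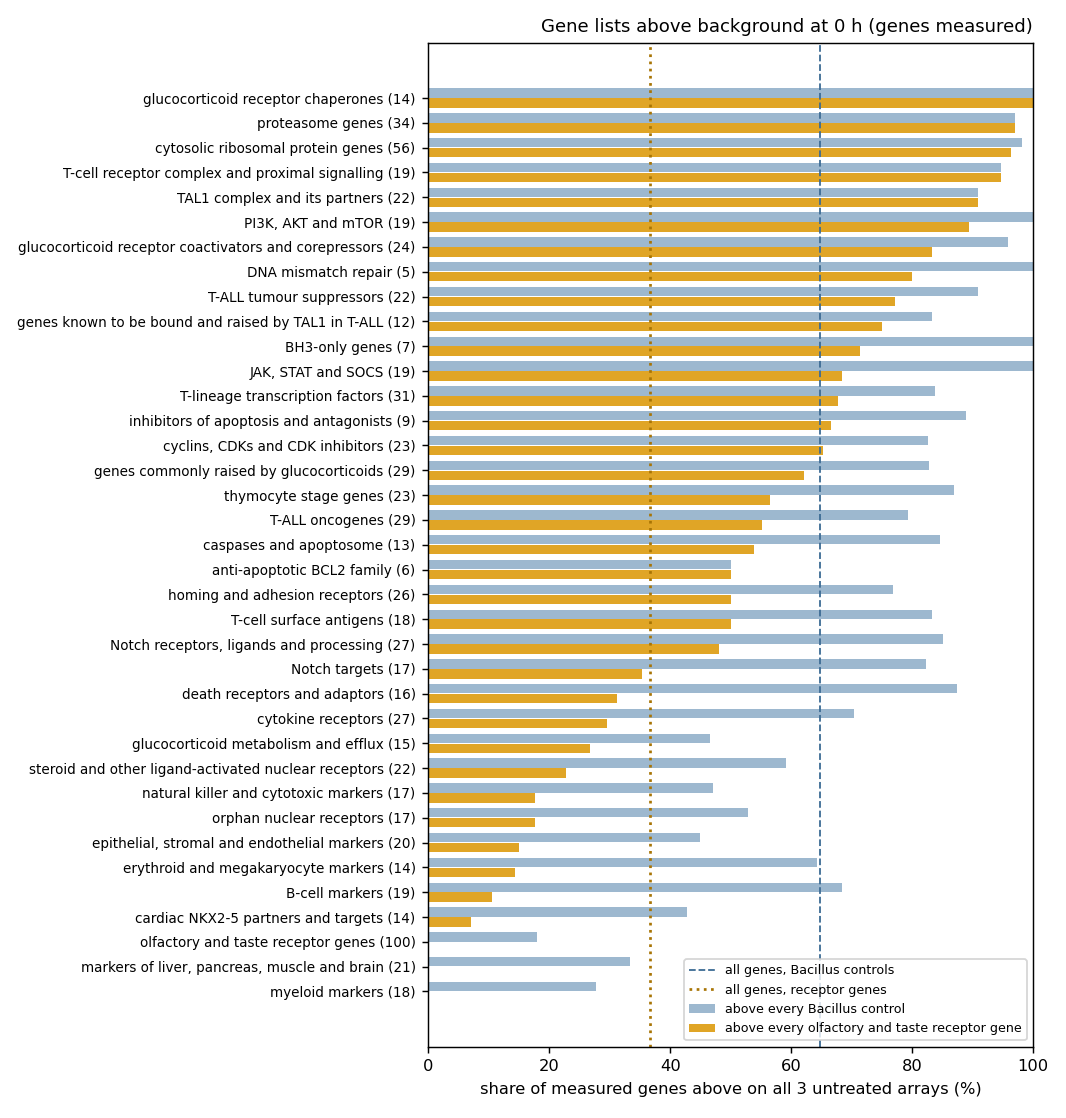
Share of each list's measured genes (horizontal axis, percent; number measured in brackets) above every Bacillus control (blue bars) and above every receptor gene (yellow bars) on all 3 untreated arrays, with the same shares over all genes as dashed (64.8%) and dotted (36.7%) lines. The glucocorticoid receptor chaperones reach 100% on both, and the myeloid markers and the markers of liver, pancreas, muscle and brain reach 0% on the stricter one.

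The anti-apoptotic BCL2 family was represented by 3 of its 6 genes, each above the ceiling on all arrays. This is 50.0% by both yardsticks, against 64.8% of all genes above background and 36.7% above the ceiling. MCL1 was at 9.87, 9.74 and 9.80, BCL2L1, which encodes BCL-XL, at 9.13, 8.92 and 8.86, and BCL2 itself at 7.30, 6.43 and 6.89. BCL2 was the closest of these to the ceiling: on replicate 2 it lay at 6.43 against 6.39, and its other 3 probe sets lay below 6. BCL2A1 was within the control range at 2.59, 1.81 and 2.42, BCL2L10 was within it too, and BCL2L2 overlapped at 4.65, 4.23 and 4.67.

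Of the pore-forming genes, BAK1 was at 7.64, 7.28 and 7.13, above the ceiling, and BAX at 5.94, 6.11 and 5.86, above background by both probe sets and under the ceiling. BOK overlapped the controls at 4.77, 4.50 and 5.20.

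All 7 measured BH3-only genes, the triggers of the pathway, were above background before any hormone was given, and 5 were above the ceiling, with a median margin of 3.89. BCL2L11, which encodes BIM, was at 8.43, 8.51 and 8.50 by the highest of 7 probe sets, of which 5 were above background on all arrays and 2 overlapped. PMAIP1, which encodes NOXA, was at 10.48, 10.24 and 10.45, BIK at 9.90, 10.02 and 9.69, BID at 9.48, 9.62 and 9.38 and BAD at 7.47, 7.53 and 7.40. BMF was at 5.35, 5.16 and 5.23, under the ceiling, and HRK was close to the controls at 4.73, 4.63 and 4.76. The arrays of these genes lay close together, with a median SD of 0.09 against 0.22 for the 12819 genes above background. BBC3, which encodes PUMA, was not analysed here.

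Inhibitors of apoptosis and their antagonists were above background in 8 of 9 cases and above the ceiling in 6, with a median margin of 4.69. XIAP, which blocks effector caspases, was at 9.70, 9.65 and 9.56, BIRC5, which encodes survivin, at 10.29, 9.96 and 10.15, and DIABLO, the mitochondrial antagonist of XIAP, at 9.22, 9.19 and 9.62. BIRC7 overlapped the controls, and BIRC3 was not analysed here. Caspases and apoptosome genes were above background in 11 of 13 (84.6%, against 64.8% of all genes), with a median margin of 2.61. Above the ceiling were 7 (53.8%, against 36.7%). CASP8, the initiator at death receptors, was at 8.23, 7.85 and 7.52 and CASP9, the initiator at the apoptosome, at 7.31, 6.88 and 7.41. With probe sets without a suffix preferred CASP8 had a margin of -1.28. APAF1, the scaffold of the apoptosome, was at 6.11, 5.91 and 6.46 and CASP10 at 5.58, 5.17 and 6.10, both under the ceiling. CASP5 and CASP14 were within the control range.

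Of 16 death receptor and adaptor genes 14 were above background (87.5%, against 64.8% of all genes), with a median margin of 1.86. Above the ceiling were 5 (31.2%, against 36.7%). FAS, the receptor that removes activated lymphocytes, was at 7.73, 7.17 and 7.71, with 4 of 5 probe sets above background. The fifth, the only one without a suffix, gave a margin of -0.11. FADD, its adaptor, was at 8.82, 8.65 and 8.77, TNFRSF1A at 8.51, 8.08 and 8.06, and TNF, its ligand, at 8.67, 8.35 and 8.10. FASLG, the ligand of FAS, was within the control range at 4.22, 4.20 and 4.67. The TRAIL receptors TNFRSF10A and TNFRSF10B were above background but not above the ceiling on all arrays.

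**Figure D4:**
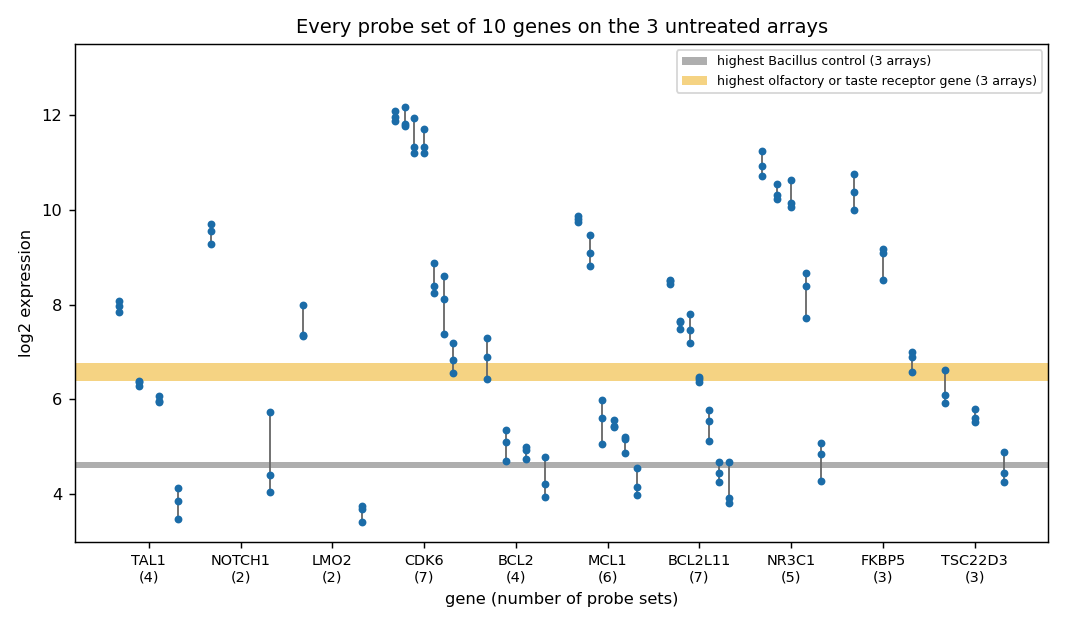
Log2 expression (vertical axis) of every probe set of 10 genes, with 3 points per probe set for the 3 untreated arrays and a line over their range, against the highest Bacillus control (grey band) and the highest receptor gene (yellow band). Probe sets of a gene are sorted by their mean; those of NR3C1, TAL1, BCL2, MCL1 and BCL2L11 reach from above the yellow band down to the grey band or below it, while all 7 of CDK6 lie above the yellow band's lower edge.

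The receptor through which the cells respond to dexamethasone was clearly read. The 4 NR3C1 probe sets above background stood at 11.24, 10.72 and 10.92, at 10.54, 10.32 and 10.22, at 10.64, 10.05 and 10.15 and at 8.66, 8.40 and 7.73. The fifth lay at 5.08, 4.84 and 4.28, with replicate 3 below the highest control. Replicate 1 was the highest array on all 5 probe sets. NR3C2, the mineralocorticoid receptor, which also binds glucocorticoids, was within the control range at 2.59, 2.39 and 3.00.

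All 14 measured chaperones and cochaperones of the receptor were above background and above the ceiling, with a median margin of 5.57. HSP90AA1 was at 13.39, 13.26 and 13.14, HSP90AB1 at 12.66, 12.48 and 12.44 and PTGES3, the p23 cochaperone that stabilises the hormone-binding state, at 12.73, 12.42 and 12.59. FKBP4, which carries the receptor towards the nucleus, was at 9.60, 9.34 and 9.51, with a margin of -0.16 by its probe set without a suffix. FKBP5, which lowers the receptor's affinity for hormone and is itself a target of it, was at 10.38, 10.00 and 10.77, above background by all 3 of its probe sets although the medium had been stripped of steroids. Most cells use these chaperones, and their levels are not particular to the hormone pathway.

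Coactivators and corepressors were above background in 23 of 24 cases and above the ceiling in 20, with a median margin of 3.55. NCOA1 (7.90, 7.75 and 7.78) and NCOA2 (7.89, 7.81 and 7.92), which bind the hormone-bound receptor, were above both, as were SMARCA4 of the chromatin-remodelling complex, the adaptor TRIM28, CBX3 and NRIP1. SMARCA2, the other catalytic subunit of that remodelling complex, was at 5.22, 5.47 and 6.03, under the ceiling. By probe sets without a suffix SMARCA4 had a margin of -0.48 and SMARCA2 of -2.14. PPARGC1A, a coactivator of liver and muscle, was within the control range at 3.79, 3.50 and 3.96.

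Genes that make, inactivate or export glucocorticoids were read at mixed heights. Of 15 measured, 7 were above background (46.7%, against 64.8% of all genes), 3 overlapped and 5 were within the control range, and 4 were above the ceiling, with a median margin of 0.21. The count was 9 without replicate 2 and 10 against the second highest control. HSD11B1, which regenerates active cortisol, was within the control range at 4.15, 3.36 and 4.08, and HSD11B2, which inactivates it, at 4.22, 4.05 and 4.22. The steroid-making enzymes CYP11A1 and CYP11B1 were within it too. ABCB1, the drug efflux pump that can carry dexamethasone, overlapped at 3.58, 3.81 and 4.89, where replicate 3 alone exceeded the controls. The 4 above the ceiling were the reductase genes AKR1C3 (9.88, 10.54 and 10.16), AKR1C1 (7.51, 7.61 and 7.80) and AKR1C2 (6.67, 6.63 and 6.83) and the pump ABCC1 (9.60, 9.31 and 9.50). The AKR1C genes are close copies of each other, so their probe sets may share signal.

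Genes that glucocorticoids commonly raise were read at widely different heights before hormone. Of 29 measured, 24 were above background and 18 above the ceiling, with a median margin of 3.89. GLUL, which encodes glutamine synthetase, was at 12.23, 12.01 and 12.07, the mTOR inhibitor DDIT4 at 10.22, 9.78 and 10.18, TXNIP, which restrains thioredoxin and glucose uptake, at 9.15, 8.65 and 8.74 and the phosphatase DUSP1 at 7.97, 8.03 and 7.23. TSC22D3, which encodes GILZ and is a standard readout of the receptor, was at 6.10, 6.61 and 5.92, above background on each array and above the ceiling on replicate 2 alone. By their probe sets without a suffix GLUL had a margin of -0.58 and TSC22D3 of -0.07. SGK1, a kinase, and KLF9, a Krüppel-like factor, were under the ceiling, and ZBTB16, CEBPD and MAP3K8 were within the control range. Some receptor targets were thus at background in stripped medium while others, FKBP5 among them, were far above it.

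Other nuclear receptors gave lower shares than all genes (64.8% above background and 36.7% above the ceiling). Of 22 steroid and other ligand-activated receptors 13 were above background (59.1%) and 5 above the ceiling (22.7%), with a median margin of 0.75, and of 17 orphan receptors 9 and 3, with a median margin of 0.38. Besides NR3C1 the members above the ceiling were RORB, NR1D2, PPARA and RXRB. RORB, known from retina and brain, was at 10.54, 10.06 and 9.88 and was above background by all 3 of its probe sets. RORA was within the control range, with none of its 8 probe sets above. The sex-steroid receptor ESR1 was at 5.69, 4.90 and 5.46, under the ceiling, ESR2 overlapped, and PGR was within the control range. Of the NR4A genes, which respond to T-cell receptor signals, NR4A1 was at 6.26, 6.29 and 6.87 and NR4A2 within the control range at 2.90, 2.31 and 3.29.

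Markers of other cell types were read in the same way, and most lay under the ceiling. Of 18 myeloid markers 5 were above background (27.8%, against 64.8% of all genes), with a median margin of -0.59. None was above the ceiling, against 36.7% of all genes. This holds for the list as drawn up. AIF1 (11.93, 11.98 and 11.86) and CEBPB (9.91, 9.72 and 9.80), which myeloid cells also use, were above the ceiling on all arrays. They were counted among the stage genes and the genes raised by glucocorticoids. The 5 listed markers above background were CEBPE, at 6.14, 6.09 and 6.35, CSF3R, CD14, CEBPA and ITGAM (margin -0.17 with the mean of its probe sets). The count ran from 3 to 8 under other control values. LYZ, S100A8, S100A9 and CSF1R were among 11 within the control range, and MPO, the defining enzyme of the granulocyte line, overlapped at 4.68, 3.87 and 4.50. Of 21 markers of liver, pancreas, muscle and brain 7 were above background (33.3%, against 64.8% of all genes) and none above the ceiling. Under other control values and probe set rules 4 to 12 were above background, and albumin, glucagon and insulin genes were within the control range. Of 17 natural killer and cytotoxic markers 8 were above background (47.1%, against 64.8% of all genes) and 3 above the ceiling (17.6%, against 36.7%). The 3 were CTSW at 9.16, 9.35 and 8.94, NKG7 at 7.41, 7.21 and 7.55 and PRF1, which encodes perforin, at 7.59, 7.34 and 7.01. GZMA (7.64, 6.54 and 6.09) and NCR3 (6.95, 6.52 and 6.68) were above background on all arrays and above the ceiling on 2. NCAM1 (5.23, 5.27 and 5.75), NCR1 and KIR2DL4 were above background and under the ceiling, but NCR1 lost its call with probe sets without a suffix preferred (a margin of -1.28) and NCAM1 with the mean of all probe sets (-0.50). GZMH overlapped the controls, and the other 8, among them GNLY, KLRD1, KLRF1 and GZMB, were within the control range.

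The B-cell list was above background in 13 of 19 (68.4%, against 64.8% of all genes). On all arrays 2 members were above the ceiling (10.5%, against 36.7%). With the mean of all probe sets 6 of the 19 were above background, beside 11246 of 19775 over all genes. CD72, a B-cell coreceptor, was above the ceiling on 2 arrays, at 6.74, 6.51 and 6.57. CD79A, a signalling chain of the B-cell receptor, was at 8.79, 8.44 and 8.27, above background by both probe sets. IGLL1, a surrogate light chain of the pre-B-cell receptor, was at 9.75, 10.29 and 9.06. CD79B, the partner of CD79A, was under the ceiling at 6.31, 6.33 and 6.48, with a margin of -0.78 by probe sets without a suffix. Other genes of the lineage were lower. PAX5 was at 5.09, 4.86 and 5.58, above background on each array and under the ceiling. EBF1 was at 4.46, 4.45 and 4.57, and MS4A1, which encodes CD20, at 3.96, 3.88 and 4.45. BLNK, the adaptor downstream of CD79A, was at 2.27, 2.14 and 2.74. CD79A and IGLL1 were therefore read above the ceiling on arrays where 6 of the 19 were within the control range, EBF1, MS4A1 and BLNK among them. Against the second highest control EBF1 and MS4A1 had positive margins.

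Of 14 erythroid and megakaryocyte markers, 9 were above background (64.3%, close to the 64.8% of all genes). Above the ceiling were 2 (14.3%, against 36.7%). These were TFRC (12.27, 12.11 and 12.07), the transferrin receptor that all dividing cells use, and EPOR, the erythropoietin receptor, at 7.67, 7.47 and 7.78. The EPOR probe set, 1 of 5 of which 4 were above background, carries a suffix (f) that the suffix rule did not look for. Whether it reads other transcripts was not tested. GATA1, the erythroid partner of TAL1, was at 5.23, 5.34 and 5.76 and HBB at 5.85, 6.10 and 6.08, both under the ceiling, while KLF1 and ALAS2 overlapped the controls. Of 20 epithelial, stromal and endothelial markers, 9 were above background (45.0%) and 3 above the ceiling. EPCAM, an epithelial adhesion gene, was at 9.36 on replicate 2, at 7.34 on replicate 3 and between these on replicate 1, with a mean of 8.23 ± 1.03 (SD, n = 3) and a range between arrays of 2.02. PECAM1, which leukocytes also carry, was at 7.96, 7.48 and 7.74, and the collagen gene COL1A1 at 7.11, 6.88 and 7.26 by the best of 5 probe sets. With the mean of all probe sets 4 of the 20 were above background, and COL1A1 was not. Of the epithelial keratins KRT5 (5.84, 5.68 and 5.71) and KRT8 (5.56, 5.34 and 5.25) were above background and under the ceiling, and KRT14, KRT18, KRT19 and KRT20 were within the control range, as was the cadherin CDH1. EPCAM was the only epithelial gene of the list above the ceiling, and the part of other cells in its value was not tested.

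The 3 arrays were alike over all probe sets, with pairwise correlations of 0.991, 0.988 and 0.985, and shared at most 0.183% identical values. Array medians were 4.91, 4.68 and 5.01. Over the 12819 genes above background the median SD was 0.22, and 328 genes (2.56%) ranged over more than 1 log2 unit and 19 over more than 2. Replicate 2 was the lowest array for 8452 of these genes (65.9%). This order depended on the scaling: with each array centred on its own median, replicate 3 was the lowest for 7132 (55.6%), and after quantile normalization replicate 2 was the lowest for 4858 (37.9%). Small differences between arrays therefore have no order that holds under every scaling. Replicate 2 also differed in ribosomal RNA controls, with the 3-prime probe set for 18S RNA at 10.04 against 6.88 and 7.90. The differences between 3-prime and 5-prime probe sets gave no single order. Replicate 2 had the smallest for actin, 0.32 against 0.57 and 0.67, but the largest for GAPDH, 0.25 against 0.20 and 0.19. The part of these in the levels was not tested.

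A few genes differed between replicate arrays far beyond that spread. RACGAP1, which acts in cell division, was at 8.48, 11.15 and 7.46, a range of 3.69. The next were MPLKIP, a gene of trichothiodystrophy, at 7.52, 8.94 and 5.80, STAM, an endosomal sorting gene, at 8.29, 9.95 and 6.96, and the RNA-binding gene RBM12 at 9.79, 10.44 and 7.70. On these 4, and on CD1D, CUL5 and SMIM10L1, replicate 2 was the highest and replicate 3 the lowest array. ECRG4, at 5.69 and 7.71 on replicates 2 and 3 and lower on replicate 1, ARHGAP29 (5.73, 5.29 and 7.69) and CCDC69 (4.59, 4.85 and 6.87) were instead high on replicate 3. ATP6AP2 and MDM1 were high on replicate 2 alone. Centring or quantile normalization left the ranges of all 12 above 2 log2 units. Among the 100 genes with the widest range replicate 2 was the highest array for 55 and replicate 3 the lowest for 63, against 1353 and 3285 of the 12819. Of the markers described above, CD1D, with a thymocyte role, is the one whose value rests most on which array is read: 7.37 and 7.83 on replicates 1 and 2, and 5.17 on replicate 3.

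**Figure D5:**
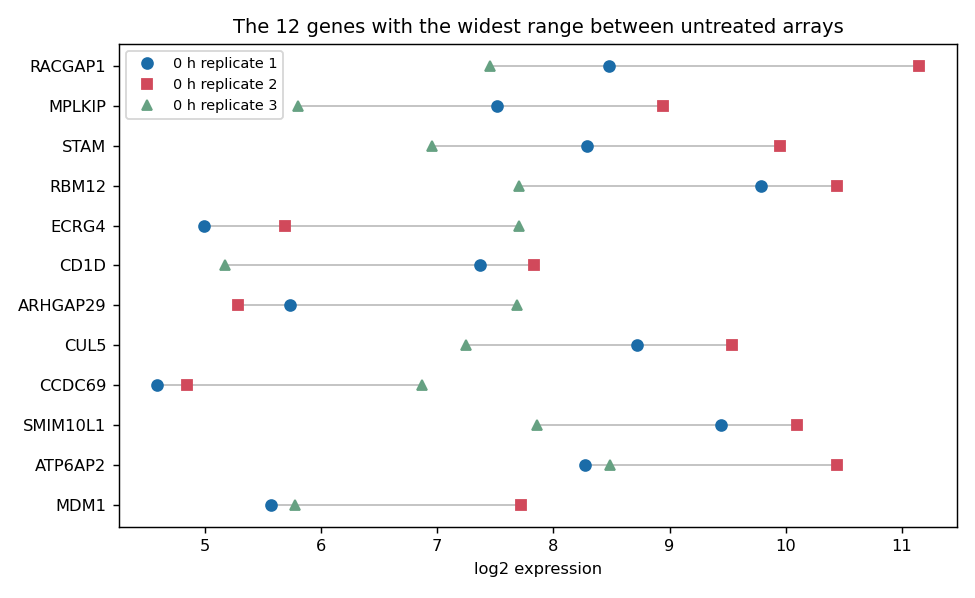
Log2 expression (horizontal axis) of the 12 genes with the widest range between the 3 untreated arrays among genes above background, 1 symbol per array and a line over the range. The arrays span from 2.15 (MDM1) to 3.69 (RACGAP1) log2 units, and replicate 2 is the highest array for 9 of the 12.

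Returning to the promoters printed above, CG content was counted in the same 250 bases for the 11469 measured genes that have a single window in the RefSeq table. Genes above background had a median of 21 CG dinucleotides, those overlapping it 11 and those within the control range 7, against 18 for all. The share above background was 30.2% for windows with 0 to 4 CG, 58.1% with 5 to 14, 78.8% with 15 to 24 and 78.2% with 25 or more. CG reads the same on both strands. The letters TATAAA, searched on both strands, were present in 5.90% of windows of genes above background, 15.3% of those within the control range and 8.98% of all. STIL and BCL11B, with 26 and 17 CG, belong to the classes in which most genes were above background. CD3D and CD79A, with 4 each, belong to the class in which most were not, and both were above it on each array. None of the 4 windows holds TATAAA. Counts of letters describe these windows and show nothing of methylation or binding in these cells.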

How the data were processed

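Biotin-labelled target made from total RNA was read on arrays of 54675 oligonucleotide probe sets, 1 sample per array. The values deposited by the authors are on a log2 scale, 1 per probe set, made with RMA per the submitters' processing notes, and were not centred per gene. The RMA version and the genome build are not given in the sources used here. Groups came from the treatment and time in the labels, and 3 of 8 arrays are untreated. No array pair held enough identical values to count as a copy. The number of arrays limits the precision of every value.

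Names came from the platform's annotation, in which 41091 probe sets had 1 symbol, 1801 several and 11721 none, besides 62 controls. For 41043 of them the Entrez identifier was found in RefSeq's gene table (GRCh38.p14), which changed 0 symbols. Each of 19775 genes was represented by the probe set of its single symbol with the highest mean over the 3 untreated arrays. That choice favours probe sets above background, and genes with no such probe set were not analysed here. Background was the highest of 27 Bacillus controls of the same array. No test was made. The counting script was tested on simulated data, and Python 3.11.15 with numpy 2.4.6 and pandas 2.3.3 was used.

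The members, the 36 gene lists (584 distinct genes measured) and the rules were chosen with earlier results of these data known. Genes were marked for naming from a panel of 88, of which 76 were measured, and as the 12 genes with the widest range. From each list up to 6 members with the largest margin were marked, or every member above background where there were 5 or fewer. The text names only part of those marked from the lists. For example, CYCS and CASP2 of the caspase and apoptosome list, with margins of 7.25 and 5.82, are not described. The members described for a list are therefore not always those with its largest margins. Other genes are named because they overlapped or lay within the control range or under the ceiling, or for their role in the pathway, and these were chosen after their values were seen. The receptor-gene ceiling was also chosen after seeing the data. Alternatives tried were other control values, array rules, probe set rules, scalings and leaving out each array. Promoter windows come from RefSeq, GRCh38.p14, which holds 1 or more windows for 15384 of the genes, and the 250 bases before the start were used.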

Additional observations from a re-analysis of the deposited data

Results flagged for a closer look

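Signal lay outside the genes described. Of 11721 probe sets with no gene symbol in the platform annotation, 3601 were above the highest Bacillus control on all 3 untreated arrays (30.7%), against 56.0% of the 41091 with a single symbol, and 764 of them were above the receptor-gene ceiling. Of 1801 probe sets with several symbols, 1149 were above the highest Bacillus control on all 3 arrays (63.8%). They read transcripts that are unnamed here or shared between genes, and no gene was named from them.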

How the results depend on the processing

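No paired analysis was possible because a single group is described and no test was made. The count of 12819 genes above background rested on the background value. It was 15015 against the second highest Bacillus control, 14566 against the mean plus 2 SD of the controls, 12195 against the highest control of all 8 arrays, and 7219 against the receptor-gene ceiling. It was 13610 by the mean over arrays, 11246 with the mean of all probe sets, 11857 with probe sets without a cross-hybridization suffix preferred and 12816 with the probe set chosen over 8 arrays. Leaving out 1 array gave 12907 to 13428. Centring and quantile normalization keep the order within an array and left it at 12819, and the median SD went from 0.22 to 0.18 and 0.17.

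Of 468 list counts 457 stayed within 1.5 times the reported count. These include the counts under centring and quantile normalization, which could hardly change because the order within an array is kept. Lists with most members above also had little room to rise. Against the second highest control the lists of myeloid markers, of liver, pancreas, muscle and brain, and of olfactory and taste receptors rose to 8, 12 and 40, and the latter pair were 12 and 37 against the mean plus 2 SD. Against the highest control of all arrays the cardiac, myeloid and receptor lists fell to 3, 3 and 11. With the mean of all probe sets the B-cell list fell to 6, and the epithelial list and that of liver, pancreas, muscle and brain to 4 each.

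Of 3492 margins of 291 named genes, 68 were counted as changing sign, for 54 genes. The count covers genes called above background or within the control range. Sign changes of genes that overlapped the controls were not counted. Among these, DNTT and MPO had margins of -0.03 and -0.25 but lay above the second highest control on every untreated array. Against the second highest control, genes within the control range came above it: BCL2L10 (0.30), CASP14 (0.31), CASP5 (0.27), CCR1 (0.07), CCR2 (0.04), CYP11A1 (0.33), EBF1 (0.52), FASLG (0.40), GZMB (0.07), HSD11B2 (0.19), KLRD1 (0.03), KRT18 (0.29), KRT19 (0.36), LMO1 (0.09), MS4A1 (0.13), MYH6 (0.06), RORA (0.15) and ZBTB16 (0.03). The mean plus 2 SD did so for BCL2L10 (0.13), CASP14 (0.14), CASP5 (0.10), CYP11A1 (0.16), EBF1 (0.36), FASLG (0.23), HSD11B2 (0.02), KRT18 (0.12) and KRT19 (0.19). The highest control of all arrays took HRK to -0.02. The mean of all probe sets took ARHGAP29 to -0.97, CCND2 to -0.56, CDKN2A to -0.47, COL1A1 to -0.78, ESR1 to -0.65, FOXP3 to -0.08, GATA4 to -0.06, GATA6 to -0.80, HRK to -0.50, ITGAM to -0.17, JAG1 to -0.47, KLF9 to -0.79, MYCN to -0.23, NCAM1 to -0.50, RAG1 to -0.37, SMARCA2 to -0.37, SOCS2 to -0.32, SOCS3 to -0.78 and TAL2 to -0.07. Preferring probe sets without a suffix took AKR1C2 to -0.12, CASP8 to -1.28, CD79B to -0.78, CD8B to -0.17, CDKN2A to -0.73, EED to -1.90, ESR1 to -1.01, FAS to -0.11, FKBP4 to -0.16, GLUL to -0.58, IFNGR1 to -0.06, LMO2 to -0.97, MSH3 to -2.08, NCR1 to -1.28, RBPJ to -0.36, SMARCA2 to -2.14, SMARCA4 to -0.48, SOCS3 to -0.62, TAL1 to -0.77, TSC2 to -1.60 and TSC22D3 to -0.07. These follow from the changed yardstick or probe set, and which probe set reads a gene better was not tested.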
